A study of Homo sapiens with 14 samples.

Results

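The BTG and TOB genes encode a small family of antiproliferative proteins. The 5 members examined here, BTG1, BTG2, BTG3, TOB1 and TOB2, were the rows of the count table that carry these gene names, 5 of 62703 genes, and the set was chosen with their measured levels and responses in these libraries known. Their levels and changes are therefore given as a description, without p-values. Where a member is said to be called, that states its place in the fit to all genes and is not independent evidence, because the same values chose it. All 5 passed the filter on low counts that left 7086 genes for testing. A further family member, BTG4, which acts in the clearance of maternal mRNA in the oocyte, had 1 count in 1 of 14 libraries and is not described further.

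The study treated human prostate cancer cell lines with SEL120-34A, an inhibitor of CDK8 and CDK19, the kinases of the Mediator complex that links transcription factors to RNA polymerase II. Cells received 1.5 µM of the inhibitor or the solvent DMSO for 3 days, and mRNA was counted by BRB-seq, a method that barcodes each sample early and reads only the 3′ end of transcripts. LNCaP, a line from a lymph node metastasis that is sensitive to the antiandrogen enzalutamide, and 22Rv1, an enzalutamide-resistant line from a xenograft, had 3 libraries for each treatment. PC3, an androgen-independent line from a bone metastasis, had 1 library for each treatment. PC3 here is always the cell line, although the same name was once used for BTG2. Each line is a single established model at 1 dose and 1 time, the groups of a line differ only in SEL120-34A or DMSO, and the labels do not say whether the 3 libraries came from separate cultures. The published methods describe the experiments in general as biological replicates without tying these libraries to cultures, so the errors measure the spread between these libraries, which may partly be technical.

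Proteins of this family share an N-terminal BTG domain that binds the deadenylases CNOT7 and CNOT8 of the CCR4-NOT complex. Through this contact they bring the complex to mRNAs, whose poly(A) tails are then shortened, and high levels are known to slow entry into S phase and to favour quiescence. TOB1 and TOB2 carry longer C-terminal tails that also bind the cytoplasmic poly(A)-binding protein, and their own mRNAs and those of BTG1 and BTG2 are short-lived and react quickly to stress and growth signals.

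The libraries held between 246063 and 909176 counts, so 3 counts, used as the lowest interpretable level, corresponded to 12.9 CPM, counts scaled to a common library size, in the shallowest and 3.27 CPM in the deepest. All 3 treated 22Rv1 libraries were shallower than all 3 22Rv1 controls. CPM values are scaled by the trimmed mean of M values (TMM), and floors and counting intervals cover counting error only. The luminal marker KLK3 lay between 238 and 1369 CPM in LNCaP and between 8.58 and 31.8 CPM in 22Rv1. It was near the floor in both other lines, with 2 to 17 counts in 22Rv1 and 6 and 7 counts in PC3. The PC3 values of 7.62 to 10.5 CPM overlapped those of 22Rv1, so KLK3 did not separate these 2 lines. The epithelial keratin KRT8 was present in every library at 140 to 622 CPM. VIM and COL1A1 reached 1262 and 92.5 CPM in PC3 but no more than 51.5 and 18.3 CPM in the other lines, and 5 leukocyte and 4 endothelial markers summed to at most 3 and 7 counts per library. In such bulk samples, fewer cells of one kind and less RNA per cell cannot be told apart.

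The RefSeq promoters of BTG1 and BTG2 are shown because these closely related genes differed most in how LNCaP and 22Rv1 cells responded. On GRCh38 (GENCODE release 44), BTG1 is a gene of 2 exons on the minus strand at chr12:92140278-92145846, and BTG2 a gene of 2 exons on the plus strand at chr1:203305491-203309602. The 250 bases before BTG1 (chr12:92145847-92146096, minus strand) and the 222 bases before BTG2 (chr1:203305269-203305490, plus strand), from the GRCh38.p14 RefSeq table, read 5′ to 3′ as follows, with matches to the searched motifs in capitals.
BTG1: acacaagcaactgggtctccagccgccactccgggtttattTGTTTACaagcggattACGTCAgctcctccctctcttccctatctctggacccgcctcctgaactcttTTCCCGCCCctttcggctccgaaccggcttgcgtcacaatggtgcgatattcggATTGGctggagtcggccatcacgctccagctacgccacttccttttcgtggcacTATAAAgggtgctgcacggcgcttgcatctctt
BTG2: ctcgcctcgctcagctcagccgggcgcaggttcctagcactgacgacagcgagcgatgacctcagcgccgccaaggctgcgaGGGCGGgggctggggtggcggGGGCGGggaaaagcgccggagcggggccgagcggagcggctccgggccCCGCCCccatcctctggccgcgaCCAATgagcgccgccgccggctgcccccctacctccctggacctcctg

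The BTG1 sequence held a forkhead core (TGTTTAC) beginning 209 bases before the start, a cyclic AMP response element core (ACGTCA) at 193 bases, an E2F core (TTCCCGC) at 141 bases that overlapped a GC box on the opposite strand, an inverted CCAAT box at 87 bases and a TATA box (TATAAA) at 33 bases. The BTG2 sequence held 3 GC boxes (GGGCGG, 1 of them inverted) and a CCAAT box, and neither a TATA box nor a forkhead core. Both strands were searched. Of 35116 RefSeq promoter windows of 300 bases, 3.4% held the forkhead core, 8.0% the cyclic AMP response element core, 6.6% the E2F core, 11.5% the TATA box, 34.6% the CCAAT box and 45.0% the GC box. Of the 5 genes, BTG1 was the one with a TATA box, a cyclic AMP response element core or a forkhead core in its window, whereas each of the 5 had at least 1 GC box. TOB1 had 2 windows. Its GC boxes lay in the window inside the annotated gene, and the window at the gene start matched none of the motifs. The E-box CACGTG, the AP-1 motif TGACTCA, the steroid receptor half-site AGAACA and a p53 half-site matched in none of the 5 genes, against 7.3%, 4.9%, 14.8% and 6.6% of all windows. These matches describe letters in a window and not binding. BTG1-DT, a divergent noncoding gene on the plus strand at chr12:92145573-92226557, overlaps the whole window shown for BTG1 and had 12 counts over the 14 libraries.

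BTG1 is the member with the largest response. This gene was first found at a leukemia translocation and encodes a protein that binds CNOT7 and the arginine methyltransferase PRMT1. In LNCaP, BTG1 measured 492, 429 and 397 CPM in the DMSO libraries (439 ± 48.1, SD, n = 3) and 686, 729 and 862 CPM in the SEL120-34A libraries (759 ± 91.5, SD, n = 3). Every treated LNCaP library lay above every control, and the fitted log2 fold change was 0.83 ± 0.14 (SE), or 1.77-fold. In 22Rv1, BTG1 measured 185, 135 and 125 CPM with DMSO (148 ± 31.9, SD, n = 3) and 615, 554 and 482 CPM with SEL120-34A (550 ± 66.4, SD, n = 3). Here too the groups were separate, with a log2 fold change of 1.92 ± 0.16 (SE), or 3.80-fold. The change in LNCaP minus the change in 22Rv1 was -1.10 ± 0.21 on the log2 scale. BTG1 counts ranged from 72 to 408 per library in these lines, well above the floor.

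The starting levels of BTG1 differed in the opposite direction to its response. Untreated LNCaP libraries held 3.01-fold more BTG1 than untreated 22Rv1 libraries, a log2 difference of 1.59 ± 0.15 (SE). After treatment the same comparison gave 0.49 ± 0.14 on the log2 scale, or 1.41-fold, and the lowest treated LNCaP library (686 CPM) still exceeded the highest treated 22Rv1 library (615 CPM). These comparisons share their libraries with the treatment effects and are not independent of them. The percentile of the BTG1 change among all 7086 tested genes was 95.9 in LNCaP and 99.6 in 22Rv1. Across 23 alternative settings the log2 fold change of BTG1 stayed between 0.73 and 0.92 in LNCaP and between 1.77 and 2.07 in 22Rv1. With every library thinned to 246063 counts, the difference between the responses was -1.05 ± 0.23 (SE).

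**Figure D1:**
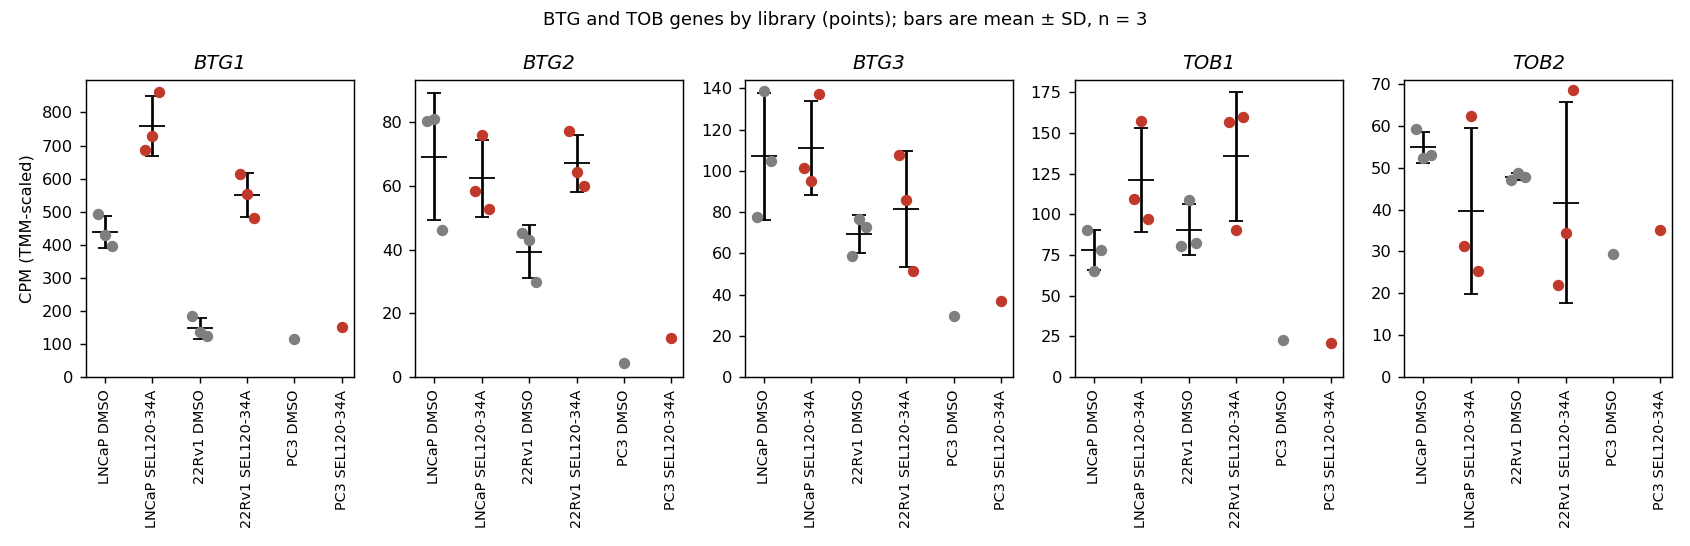
Level of each BTG and TOB gene in every library, in TMM-scaled CPM on a linear axis that starts at 0 and has its own range in each panel. Grey points are DMSO and red points SEL120-34A libraries, and bars give the mean ± SD of 3 libraries. BTG1 separates treated from control libraries in LNCaP and 22Rv1, and each gene but TOB2 lies lower in PC3 than in all LNCaP and 22Rv1 libraries with the same treatment.

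BTG2 is a p53-inducible early response gene whose protein also binds CNOT7 and PRMT1. In LNCaP, BTG2 measured 80.3, 81.2 and 46.1 CPM with DMSO (69.2 ± 19.97, SD, n = 3) and 58.5, 75.9 and 52.8 CPM with SEL120-34A (62.4 ± 12.04, SD, n = 3). The LNCaP groups overlapped, and the log2 fold change of -0.09 ± 0.26 (SE) turned to 0.08 without DMSO replicate 1 and to 0.06 without SEL120-34A replicate 3, and was -0.34 without DMSO replicate 3. In 22Rv1, BTG2 measured 45.2, 43.05 and 29.8 CPM with DMSO (39.3 ± 8.31, SD, n = 3) and 77.2, 64.4 and 59.9 CPM with SEL120-34A (67.1 ± 8.96, SD, n = 3). These groups did not overlap, with a log2 fold change of 0.83 ± 0.28 (SE) and a range of 0.60 to 0.93 over 22 alternatives. The effect in LNCaP minus the effect in 22Rv1 was -0.92 ± 0.38. With DMSO, BTG2 was 0.82 ± 0.25 higher on the log2 scale in LNCaP than in 22Rv1, and the treated lines differed by -0.10 ± 0.28. BTG2 rested on 15 to 57 counts per library, so its counting error alone was 15.7 to 21.7% of a group mean.

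BTG3, also called ANA, encodes a p53-inducible family member that binds the E2F1 transcription factor. Its 22Rv1 controls lay at 58.9, 76.7 and 72.8 CPM and its treated 22Rv1 libraries at 107, 85.8 and 51.3 CPM, which spanned the controls on both sides. LNCaP libraries gave 77.5, 139 and 105 CPM with DMSO and 101, 94.9 and 137 CPM with SEL120-34A, again overlapping. The log2 fold changes were 0.16 ± 0.22 (SE) in LNCaP and 0.23 ± 0.26 (SE) in 22Rv1, each smaller than its own error. The value turned to -0.03 and -0.04 in LNCaP without DMSO replicate 1 and SEL120-34A replicate 3, respectively, and to -0.07 in 22Rv1 without SEL120-34A replicate 1. With every library thinned to the same depth it was -0.04 ± 0.27 (SE) in LNCaP and 0.47 ± 0.31 (SE) in 22Rv1. With DMSO, BTG3 was 0.57 ± 0.22 higher on the log2 scale in LNCaP than in 22Rv1.

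TOB1, the transducer of ERBB2, encodes a protein that represses growth and SMAD-dependent transcription and is inactivated by phosphorylation. In LNCaP it measured 90.2, 65.5 and 78.3 CPM with DMSO (78.0 ± 12.4, SD, n = 3) and 109, 157 and 97.1 CPM with SEL120-34A (121 ± 31.8, SD, n = 3). The LNCaP groups did not overlap. In 22Rv1 it measured 80.5, 109 and 82.3 CPM with DMSO (90.4 ± 15.7, SD, n = 3) and 157, 90.1 and 160 CPM with SEL120-34A (136 ± 39.4, SD, n = 3). Treated replicate 2, the shallowest library of the series, fell inside the 22Rv1 control range, so these groups overlapped. The log2 fold changes, 0.63 ± 0.22 (SE) in LNCaP and 0.65 ± 0.21 (SE) in 22Rv1, differed by -0.02 ± 0.31. Over 23 alternatives the TOB1 value in LNCaP ranged from 0.38 without SEL120-34A replicate 2 to 0.81 without SEL120-34A replicate 3. In 22Rv1 it ranged from 0.50 after thinning to equal depth to 0.84 without SEL120-34A replicate 2. It was 0.77 in 22Rv1 without DMSO replicate 2 and 0.54 without SEL120-34A replicate 3. Untreated LNCaP and 22Rv1 differed by -0.17 ± 0.21 on the log2 scale, and TOB1 was the only member whose untreated lines overlapped.

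TOB2, the closest relative of TOB1, had lower mean levels after treatment in both lines, within the spread of its libraries. Its DMSO libraries were tightly grouped, at 59.2, 52.4 and 53.1 CPM in LNCaP (54.9 ± 3.72, SD, n = 3) and 47.1, 48.7 and 47.7 CPM in 22Rv1 (47.8 ± 0.78, SD, n = 3). The treated libraries were scattered, at 31.2, 62.3 and 25.3 CPM in LNCaP (39.6 ± 19.9, SD, n = 3) and 22.0, 34.3 and 68.5 CPM in 22Rv1 (41.6 ± 24.0, SD, n = 3). In each line 2 of the treated libraries lay below all controls and 1 lay above them. The treated libraries held 8 to 24 TOB2 counts, a counting error of 26.4% and 27.4% of the group mean, while the controls spread less than counting error alone would give, 6.79% against 17.3% in LNCaP and 1.63% against 18.3% in 22Rv1. The log2 fold changes were -0.46 ± 0.31 (SE) in LNCaP and -0.17 ± 0.32 (SE) in 22Rv1. Single libraries set these values, since LNCaP gave -0.98 when SEL120-34A replicate 2 was left out but -0.13 when replicate 3 was, and 22Rv1 gave -0.79 without SEL120-34A replicate 3 but 0.20 without SEL120-34A replicate 1. After thinning to equal depth TOB2 stood at -0.99 ± 0.39 (SE) in LNCaP and 0.07 ± 0.39 (SE) in 22Rv1.

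Counted over the family, BTG1 was the member that passed an adjusted p of 0.05 in edgeR's quasi-likelihood test with Benjamini-Hochberg adjustment in LNCaP, where 1.99% of all tested genes were called higher and 0.776% lower. It was also the member called in 22Rv1, where 4.15% of genes were called higher and 1.55% lower, and the member whose response differed between the lines, where 0.466% of genes had a lower response in LNCaP. Treated libraries lay entirely above controls for BTG1 and TOB1 in LNCaP, against 8.76% of genes, and for BTG1 and BTG2 in 22Rv1, against 12.4%. With DMSO, BTG1, BTG2 and BTG3 were called higher in LNCaP than in 22Rv1, as were 24.0% of genes, and those 3 and TOB2 did not overlap, against 27.5% of genes. Since the members were chosen from the same values, these counts describe the 5 genes and nothing more is read from them. Between untreated lines BTG2 was called in 19 and BTG3 in 13 of 21 alternatives, and without 22Rv1 DMSO replicate 3 neither was, which left 1 member called.

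**Figure D2:**
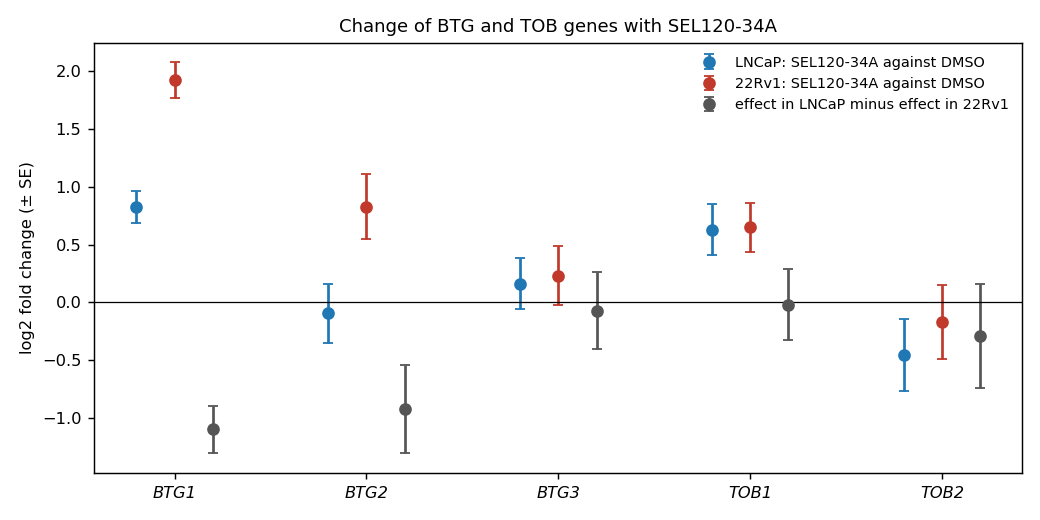
Log2 fold change ± SE of each gene with SEL120-34A in LNCaP (blue) and 22Rv1 (red), and the LNCaP value minus the 22Rv1 value (grey), from the fit to 12 libraries. BTG1 lies at 0.83 and 1.92, BTG2 at -0.09 and 0.83, and TOB1 at 0.63 and 0.65.

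The summed level of the 5 genes was 748 ± 61.7 CPM (SD, n = 3) in LNCaP with DMSO and 1093 ± 96.6 CPM with SEL120-34A. In 22Rv1 it was 395 ± 32.5 and 876 ± 88.7 CPM (SD, n = 3). Without BTG1 the sums were 309 ± 27.7 and 334 ± 48.9 CPM in LNCaP, and 247 ± 25.9 and 326 ± 46.1 CPM in 22Rv1. Most of the added family signal in both lines was thus BTG1. As a share of the family's tag counts, which are not divided by transcript length, BTG1 made up 56.0 to 61.6% in untreated and 65.1 to 73.4% in treated LNCaP libraries. In 22Rv1 its share was 32.7 to 44.3% without and 58.7 to 66.8% with the inhibitor, so the treated 22Rv1 libraries reached shares that overlapped both LNCaP ranges.

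**Figure D3:**
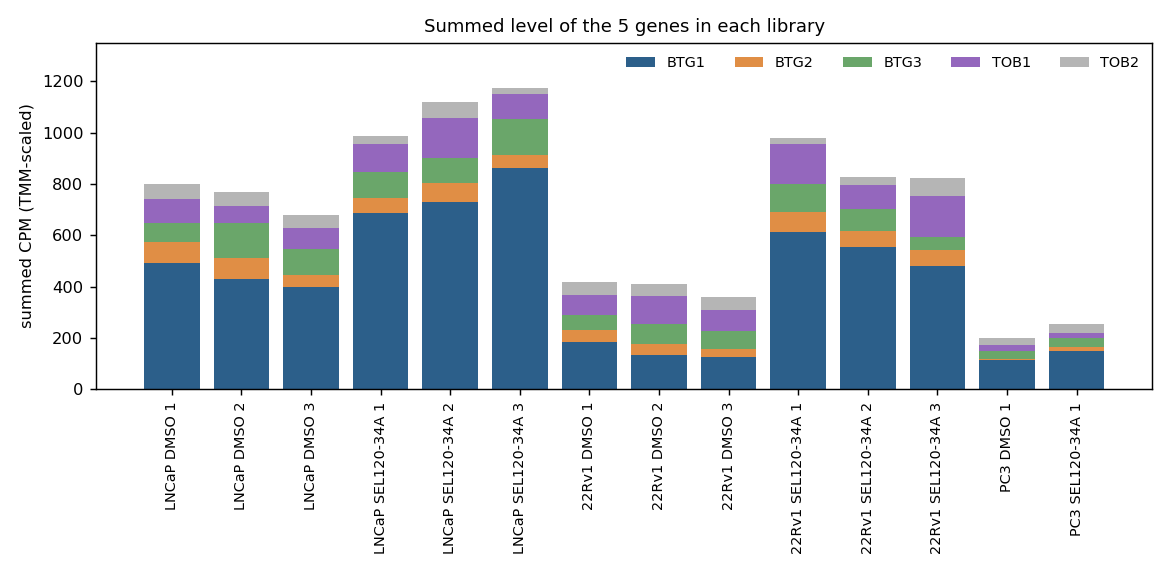
Summed TMM-scaled CPM of the 5 genes in each library, stacked by gene, on a linear axis from 0. The BTG1 segment grows from 125 to 185 CPM in untreated to 482 to 615 CPM in treated 22Rv1 libraries, and the summed level is lowest in PC3.

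PC3 had 1 library for each treatment, so its differences have no replicate check. BTG1 was at 105 counts (114 CPM) with DMSO and 86 counts (151 CPM) with SEL120-34A, a log2 ratio of 0.39 with a 95% counting interval of -0.03 to 0.82. BTG2 was close to the floor at 4 and 7 counts, and its ratio of 0.97 had an interval of -0.48 to 3.71. It was the member with a log2 ratio past 0.5 in either direction, as were 26.1% of the 9638 genes compared. BTG3 had 27 and 21 counts, TOB1 21 and 12, and TOB2 27 and 20, with log2 ratios of 0.29, -0.10 and 0.23 and intervals that included 0. The family summed to 200 CPM in the DMSO library and 256 CPM in the treated library, below every LNCaP and 22Rv1 library.

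Over the 14 libraries, log2 CPM of BTG1 correlated with that of BTG2 at r = 0.75, with BTG3 at 0.70 and with TOB1 at 0.63, and with TOB2 at -0.07. After centring each of the 12 LNCaP and 22Rv1 libraries on the mean of its line, the values were 0.67, 0.24, 0.61 and -0.46. BTG3 and TOB2 stood at -0.74 after centring. These values are descriptive, since the points share cell line, treatment and depth. Among 4275 genes with a mean of at least 20 counts, those most like BTG1 over the 14 libraries were RPLP1 (r = 0.96), ECH1 (0.95) and PQBP1 (0.95). For BTG2 they were RPS18 (0.95), SMCO4 (0.94) and TSTD1 (0.93), for BTG3 ATF4 (0.94), MRRF (0.91) and FAIM (0.91), and for TOB1 KLK4 (0.93), HAGHL (0.93) and ABCA2 (0.92). TOB2 had no such close companion, with PFKL (0.77) and TBC1D14 (0.76) at the top. After centring on the line, ECH1 and RPLP1 remained near the top for BTG1 (ranks 2 and 5), PQBP1 fell to rank 41 and DAZAP2 came first, whereas RPS18 fell to rank 101 for BTG2. SMCO4 and TSTD1 fell to ranks 315 and 221 for BTG2. For BTG3, ATF4 stood at rank 11, FAIM at 108 and MRRF at 188. For TOB1, HAGHL stood at rank 9, KLK4 at 85 and ABCA2 at 193. For TOB2, TBC1D14 stood at rank 10 and PFKL at 14.

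The deadenylation machinery that BTG and TOB proteins recruit showed few called changes. Of 19 genes of the CCR4-NOT and PAN2-PAN3 complexes, related deadenylases, tail uridylyltransferases and poly(A)-binding proteins, 15 were tested. None was called in LNCaP, where their median log2 fold change was 0.06. In 22Rv1 the median was -0.41 against 0.00 over all tested genes, with 2 of 15 values above 0. There 1.55% of all tested genes were called lower, and 1 gene of this list was called. This was PABPC4, a cytoplasmic poly(A)-binding protein, at 188 ± 26.8 CPM with DMSO and 120 ± 18.8 CPM with SEL120-34A (SD, n = 3), a log2 fold change of -0.59 ± 0.18 (SE, edgeR adjusted p = 0.0380). That call was lost when any of 6 single libraries was left out, namely LNCaP DMSO replicate 2, 22Rv1 DMSO replicates 1 and 2, and the 3 treated 22Rv1 libraries, with log2 fold changes of -0.68 to -0.49, and also by DESeq2, after thinning and with no low-count filter. The 22Rv1 median was -0.34 after all libraries were thinned to 246063 counts. Among 22 decay adaptors and decapping factors such as ZFP36L1 and DDX6, 13 were tested and none was called in either line, with medians of 0.24 in LNCaP and -0.34 in 22Rv1.

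Of 14 other binding partners and targets of the family, 12 were tested. In 22Rv1 4.15% of all tested genes were called higher, and 1 of these 12 was. PRMT1, the methyltransferase bound by BTG1 and BTG2, was called in 22Rv1 at 169 ± 15.2 against 255 ± 77.1 CPM (SD, n = 3), a log2 fold change of 0.57 ± 0.17 (SE, edgeR adjusted p = 0.0416). The PRMT1 value ranged from 0.34 to 0.73 over 23 alternatives, and 15 of these, 9 of them the removal of 1 library from any group, ended the call. No partner was called in LNCaP. The list medians were 0.06 in LNCaP and -0.02 in 22Rv1.

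The p53 target genes were listed because BTG2 and BTG3 are induced by p53. Of 28 genes, 22 were tested, and all 22 had a positive log2 fold change in LNCaP with a median of 0.48. There 1.99% of all tested genes were called higher, and 4 of this list were called. These were TP53INP1, a stress protein (log2 fold change 1.10 ± 0.25, SE, adjusted p = 0.00707), the CDK inhibitor CDKN1A (0.85 ± 0.19, adjusted p = 0.00801), the secreted stress cytokine GDF15 (0.87 ± 0.20, adjusted p = 0.0103) and the oxidoreductase TP53I3 (1.52 ± 0.39, adjusted p = 0.0193). In 22Rv1, 14 of 22 were positive and the median was 0.40. That median was 0.21 with no low-count filter, 0.24 with PC3 added and by limma-trend, and 0.25 with library totals. It was 0.51 after thinning, 0.54 with each line alone and 0.61 with at least 10 counts in every library. In 22Rv1 4.15% of all tested genes were called higher, and 4 of this list were called. These were GDF15 (2.26 ± 0.28, adjusted p = 2.51e-07), SFN, which encodes the cell cycle regulator 14-3-3 sigma (2.07 ± 0.18, adjusted p = 7.21e-11), RPS27L, a small ribosomal protein paralog (1.20 ± 0.18, adjusted p = 1.81e-05), and the kinase PLK2 (1.29 ± 0.39, adjusted p = 0.0407). Genes called in 1 line only were not always unlike in the other. In 22Rv1 TP53INP1 stood at 1.05, CDKN1A at 0.68 and TP53I3 at -0.12, none of them called. In LNCaP SFN stood at 1.81, RPS27L at 0.39 and PLK2 at 0.37, none of them called. BTG2, itself such a target, was at -0.09 in LNCaP, below the median of the list, and at 0.83 in 22Rv1.

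Several of these p53 target calls rested on single libraries or on the setting. TP53INP1 was not called without LNCaP DMSO replicate 1 or SEL120-34A replicate 2 (log2 fold change 0.83 to 0.96), nor CDKN1A without DMSO replicate 3 or SEL120-34A replicate 2 (0.65 to 0.70), nor GDF15 in LNCaP without DMSO replicates 1 or 2 (0.60 to 0.77). TP53I3 was lost without any of LNCaP DMSO replicates 1 and 3 and SEL120-34A replicates 1 and 2 (1.25 to 1.55), and PLK2 in 7 of 12 removals, namely LNCaP DMSO replicates 1 and 3, 22Rv1 DMSO replicates 1 and 3 and each treated 22Rv1 library (0.95 to 1.40). GDF15 in LNCaP rose to 1.36 without DMSO replicate 3. Other settings also reduced the LNCaP list from 4 calls, to 2 by DESeq2 (GDF15 adjusted p = 0.361) and 2 after thinning (CDKN1A adjusted p = 0.0733). By limma-trend on the deposited log2 values 0 were called (adjusted p of 0.236 to 0.298). With at least 10 counts in every library 2 were called, but only 5 genes of the list were then tested. The called genes that were still tested kept their calls in that setting. In 22Rv1 PLK2 lost its call after thinning, with library totals, with no low-count filter and by limma-trend. SFN, RPS27L and GDF15 in 22Rv1 kept their calls in every such removal.

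The FOXO and quiescence list was chosen because BTG1 is a FOXO target. Of 22 genes, 15 were tested, none was called in LNCaP and 2 were called higher in 22Rv1, with list medians of 0.36 and 0.46. Of all tested genes 4.15% were called higher in 22Rv1. Positive values numbered 11 of 15 in LNCaP and 9 of 15 in 22Rv1. TSC22D3, best known as a glucocorticoid-induced leucine zipper gene, stood at 10.3 ± 3.80 CPM with DMSO and 122 ± 85.4 CPM with SEL120-34A in 22Rv1 (SD, n = 3), a log2 fold change of 3.54 ± 0.46 (SE, edgeR adjusted p = 1.04e-06). Its DMSO level was not far above the floor of 3 counts, which was 3.58 to 5.89 CPM in these controls, so the size of this change is uncertain. DDIT4, an inhibitor of mTORC1 induced by stress, stood at 24.8 ± 2.90 and 103 ± 24.6 CPM (SD, n = 3), a log2 fold change of 2.03 ± 0.32 (SE, adjusted p = 2.22e-05). TSC22D3 and DDIT4 both had a larger response in 22Rv1 than in LNCaP, as BTG1 did (difference of the effects, edgeR adjusted p = 0.00693 and 0.0494). The list as a whole did not share this direction. Of its 15 tested genes 8 had the higher log2 fold change in LNCaP, and the median difference, LNCaP minus 22Rv1, was 0.14. The list was chosen with earlier results of these data known, so the likeness of TSC22D3 and DDIT4 to BTG1 is a description. Both kept their 22Rv1 calls in every removal of a library.

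Of 27 immediate early genes, 18 were tested. In LNCaP 1 was called higher, against 1.99% of all tested genes. In 22Rv1 1 was called higher and 1 lower, against 4.15% and 1.55%. GADD45A, a growth arrest and DNA damage gene that also responds to p53, was called higher in LNCaP (log2 fold change 1.38 ± 0.27, SE, edgeR adjusted p = 0.00117) and in 22Rv1 (1.45 ± 0.39, adjusted p = 0.0180). The 22Rv1 call of GADD45A was lost without 22Rv1 DMSO replicates 2 or 3 or SEL120-34A replicates 1 or 2 (1.04 to 1.49). EGR1, an early growth response transcription factor, was called lower in 22Rv1, from 224 ± 90.7 to 44.6 ± 38.2 CPM (SD, n = 3), a log2 fold change of -2.17 ± 0.35 (adjusted p = 4.52e-05). EGR1 kept its direction but lost its call by DESeq2 (adjusted p = 0.231) and limma-trend (adjusted p = 0.106), and GADD45A lost its call by limma-trend in both lines and after thinning in 22Rv1. The list medians were 0.19 in LNCaP and 0.14 in 22Rv1.

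Of 29 proliferation genes, the group that family members are known to restrain, 26 were tested, and each call was downward. Called lower were 2 of the 26 in LNCaP and 4 in 22Rv1, against 0.776% and 1.55% of all tested genes. In LNCaP 24 of 26 values were below 0, since 2 were positive, the median was -0.38, and RRM2, a ribonucleotide reductase subunit (-1.19 ± 0.20, SE, edgeR adjusted p = 0.000162), and CDC20, a mitotic activator (-0.96 ± 0.20, adjusted p = 0.00299), were called. In 22Rv1, 10 of 26 were positive and the median was -0.28, against -0.13 after thinning, -0.09 with no low-count filter, -0.11 by limma-trend, -0.04 with PC3 added and -0.43 with library totals. The helicase subunit MCM4 (-0.95 ± 0.20, adjusted p = 0.00181), CDC20 (-0.74 ± 0.18, adjusted p = 0.00966), the mitotic kinase PLK1 (-0.73 ± 0.22, adjusted p = 0.0420) and the cycling-cell marker MKI67 (-1.39 ± 0.43, adjusted p = 0.0464) were called. Where they were not called, RRM2 stood at -0.53 in 22Rv1, and MCM4 at -0.61, PLK1 at -0.81 and MKI67 at -0.06 in LNCaP. RRM2 and MCM4 kept their calls in every removal of a library, but without LNCaP SEL120-34A replicate 3 RRM2 stood at -1.83 and CDC20 at -1.61, and 5 genes of the list were called there instead of 2. By limma-trend 0 genes of the list were called in either line, with RRM2 at an adjusted p of 0.0632 and MCM4 at 0.0904. CDC20 lost its LNCaP call without SEL120-34A replicate 2 (-0.72) and its 22Rv1 call without DMSO replicate 3 or SEL120-34A replicates 1 or 2 (-0.70 to -0.67). PLK1 lost its call in 5 removals (LNCaP DMSO replicate 2, 22Rv1 DMSO replicates 1 and 3, SEL120-34A replicates 1 and 2, with -0.87 to -0.49) and MKI67 in 8 (LNCaP DMSO replicates 2 and 3 and SEL120-34A replicate 2, 22Rv1 DMSO replicates 2 and 3 and each treated library, with -1.60 to -1.19).

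**Figure D4:**
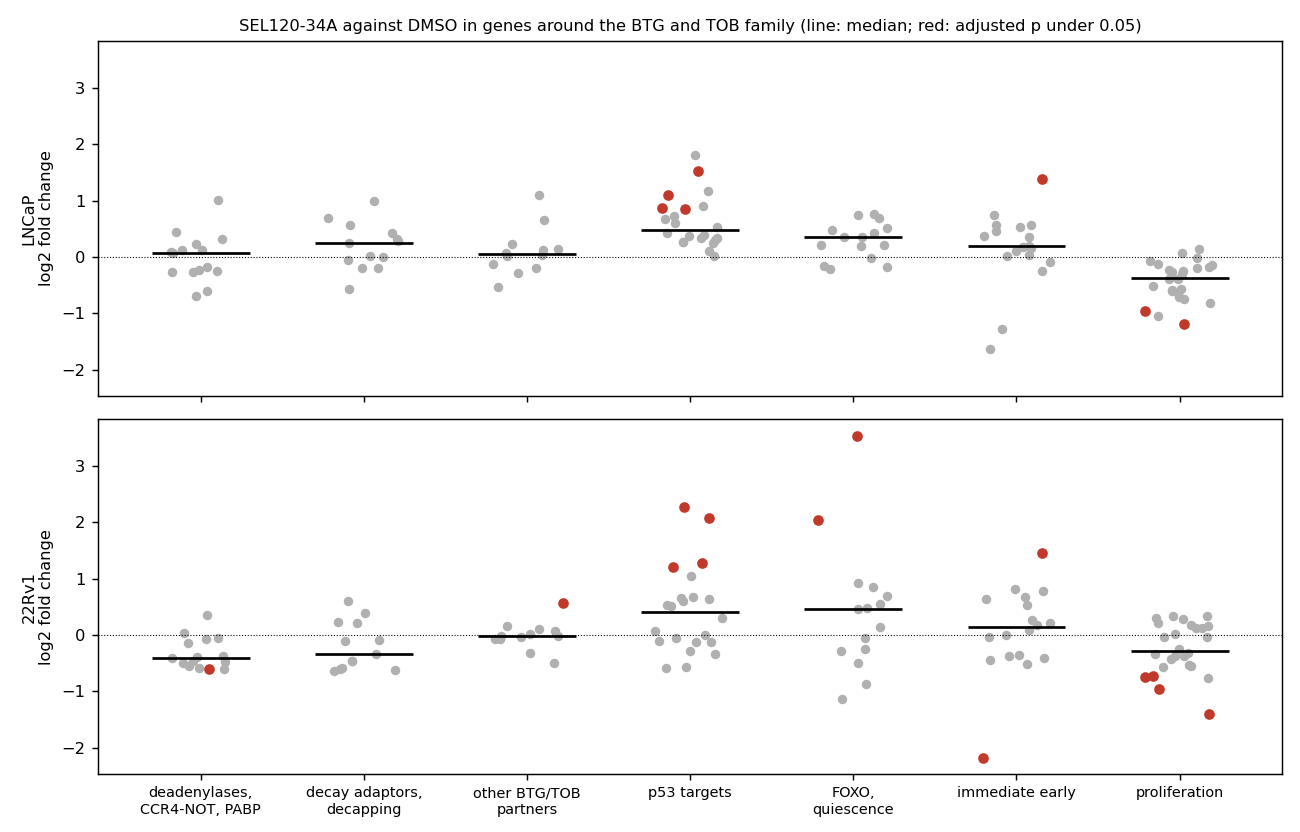
Log2 fold change with SEL120-34A of every tested gene in 7 lists of genes around the BTG and TOB family, in LNCaP (top) and 22Rv1 (bottom). Red points passed an adjusted p of 0.05, grey points did not, and the line is the list median, which for p53 targets is 0.48 in LNCaP and 0.40 in 22Rv1.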

How the data were processed

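BRB-seq libraries were aligned and counted by the authors with STARsolo on GRCh38.p13 and GENCODE 43, as the labels and the published methods state. The deposited table holds raw counts for 62703 genes in 14 libraries. Whether counts were collapsed by molecular identifier, and the strand setting, are not given in the sources used here, so reads from overlapping antisense genes cannot be told apart. The authors also deposited log2 CPM (prior count 2, TMM) for 9638 genes, which were recomputed from the counts to within 4.97e-14.

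The 12 LNCaP and 22Rv1 libraries were fitted with 1 mean per group in edgeR 4.0.16 (R 4.3.3), with TMM scaling, filterByExpr (7086 genes), the quasi-likelihood F-test and Benjamini-Hochberg adjustment over all tested genes. SE is the log2 fold change divided by the root of F. The common biological coefficient of variation was 11.1%. The scripts were tested on simulated data. DESeq2 1.42.0, limma 3.58.1 and other settings were tried as alternatives. PC3 was compared by log2 ratio with exact binomial counting intervals. Samples were grouped by their cell line and treatment labels, although the growth protocol given for all 14 samples names 22Rv1 cells. The members, gene lists and motifs were chosen with earlier results of these data known. From each list all called genes were named, up to 4 per list and line whose mean reached 10 counts, and for each member the 3 genes with the highest Pearson r, of which 1 for TOB2 is not reported here. Promoters came from the RefSeq table, which matched all 5 members.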

Additional observations from a re-analysis of the deposited data

Results flagged for a closer look

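BTG1 is listed because its fitted response differed between the lines. The log2 fold change was 0.83 in LNCaP and 1.92 in 22Rv1, a difference of -1.10, and treated libraries were above controls in 3 of 3 libraries of each line. This gene was selected with these values known, so the fit is no test of it and the difference is a description.

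From the lists around the family, 3 further genes had an adjusted p under 0.05 for the difference between the lines. The lists were chosen with earlier results of these data known, so these values are not independent evidence. Whether the 3 differences kept their calls under other settings was not tested. For TSC22D3 the log2 fold change was 0.76 in LNCaP and 3.54 in 22Rv1, a difference of -2.77 (edgeR adjusted p = 0.00693). Its 22Rv1 value started from a DMSO mean of 10.3 CPM, not far above the floor. For DDIT4 it was 0.48 and 2.03, a difference of -1.55 (adjusted p = 0.0494). For GDF15 it was 0.87 and 2.26, a difference of -1.39 (adjusted p = 0.0399). In each of the 4 genes the larger change was in 22Rv1, whose treated libraries were also the shallower ones, and the part of depth in the differences of TSC22D3, DDIT4 and GDF15 was not tested. After all libraries were thinned to 246063 counts the 22Rv1 log2 fold changes were 3.40 for TSC22D3, 2.11 for DDIT4 and 2.37 for GDF15, and the BTG1 difference was -1.05.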

How the results depend on the processing

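BTG1 kept its direction in each comparison under every alternative, and no called result reversed. Its difference between lines lay between -1.24 and -0.95 and its difference between untreated lines between 1.38 and 1.75. Its calls, which restate the values that chose it, were lost only by limma-trend on the deposited log2 values, in LNCaP and for the difference. Under limma-trend 0 members were therefore called in LNCaP and 0 for the difference.

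Genes called in LNCaP numbered 196, against 122 with at least 10 counts in every library, 92 after thinning, 101 by DESeq2 and 41 by limma-trend, and 87 to 239 on leaving out 1 library. In 22Rv1 they numbered 404, against 260 with no filter, 255 by DESeq2, 201 by limma-trend and 158 to 446 on leaving out 1 library. For the difference they numbered 52, against 29 with at least 10 counts, 25 after thinning, 5 by limma-trend and 24 to 57 on leaving out 1 library. For the untreated lines they numbered 3473, against 1503 with at least 10 counts and 2039 after thinning. Members called on leaving out 1 library ranged from 1 to 2 in LNCaP, 1 to 2 in 22Rv1 and 1 to 3 between untreated lines. Some of these settings held fewer genes or samples, whereas DESeq2 tested the same 7086 genes, limma-trend 9638 and the fit with no filter 21395. The cause of these changes was not tested.

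With library totals in place of TMM, the median of all genes moved by -0.08 in LNCaP, -0.14 in 22Rv1 and -0.21 between untreated lines. Calls then split into 99 higher and 90 lower in LNCaP (141 and 55 with TMM) and 144 and 231 in 22Rv1 (294 and 110 with TMM), while BTG1 was still higher in both. TOB2 between untreated lines then changed from 0.21 to -0.00.

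The labels share replicate numbers between groups. Deviations of same-numbered libraries correlated at -0.05 to 0.11 in LNCaP and -0.01 to 0.03 in 22Rv1. Differently numbered libraries correlated at -0.15 to 0.07 and -0.07 to 0.04, and not every library correlated best with its own number. At these depths counting error can hide a shared deviation, so these values cannot tell whether the numbers pair the samples. With a replicate block, 2 members were called in 22Rv1, TOB1 being the addition, both across lines and within line, and called genes numbered 240 and 275 in LNCaP and 450 and 479 in 22Rv1. Of 467 values of list genes under alternatives, 380 kept the call and 87 lost it, 53 of these on leaving out a library, and for 8 values of members and list genes DESeq2 gave no adjusted p. The medians of the deadenylation, decay adaptor, partner and immediate early lists turned sign in at least 1 line under 1 or more settings, such as -0.22 for deadenylation in LNCaP with at least 10 counts in every library. BTG2 and TOB2 rested on 8 to 57 counts per library in LNCaP and 22Rv1, and BTG2 on 4 and 7 in PC3.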
